A study of Mus musculus with 18 samples.

Results

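The numbered zinc finger protein genes (*Zfp* followed by a number) were followed in RNASeq libraries of resting and stimulated mouse splenic B cells. The count files list 28096 genes by Entrez number. Of the 400 genes whose mouse symbol is *Zfp* with a number, 270 had a mean count of at least 100 over the 18 libraries and are called members here. A further 114 had counts below that mean, and 16 had no count in any library. The members were selected on this mean count, and their abundance is described and not tested. Just inside the minimum were *Zfp72* with a mean count of 104, *Zfp951* with 111 and *Zfp14* with 111. Just outside were *Zfp955b* with 99.3, *Zfp772* with 94.6 and *Zfp459* with 94.2. Every member had counts in every library, and 14 members had a mean under 100 in at least 1 group.

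B cells were isolated with a B cell kit from spleens of C57BL/6 N mice at least 8 weeks old. Cells were WT or lacked Ubiquilin-1 (*Ubqln1*-/-), a protein that delivers ubiquitinated clients to the proteasome. The deletion of exon 2 was made in ES cells, so every cell of the animal carries it. Each genotype was left without stimulation (resting), given F(ab)2 fragments of anti-IgM at 10 μg/mL, which cross-link the B cell receptor, or given LPS of K12 *E. coli*, a Toll-like receptor ligand, at 20 μg/mL, all for 4 hr. Each of the 6 groups had 3 libraries, each made from pooled wells, and the study describes independent experiments. The comparisons asked how each stimulus changed these genes and whether *Ubqln1* loss altered their levels or responses.

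Most *Zfp* genes encode proteins with tandem C2H2 zinc fingers, each a short loop held by a zinc ion that can contact DNA. Many also carry a KRAB domain, which recruits the corepressor TRIM28 (KAP1) and the histone methyltransferase SETDB1, and these KRAB proteins are best known for silencing transposable elements. They arose by repeated gene duplication and lie in chromosomal clusters. The *Zfp36* family is different: its members have CCCH fingers that bind AU-rich elements in mRNA and bring in the CCR4-NOT deadenylase, and they restrain cytokine and cell cycle transcripts in lymphocytes.

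Of the 270 members, 267 are annotated as protein coding, 2 as lncRNA (*Zfp335os* and *Zfp783*) and 1 as a transcribed pseudogene (*Zfp862-ps*). A search of the translated transcripts found C2H2 fingers with a KRAB match in 143 members and C2H2 fingers without one in 117. In 6 members no C2H2 finger was found, among them *Zfp36*, *Zfp36l1* and *Zfp36l2*, and in 4 no coding transcript was found. KRAB members had a median of 12 fingers and the other C2H2 members a median of 7. Reads of 50 bases cannot always separate recent duplicates. In 63 of the 269 members examined, over 10% of the 50-base stretches of the transcript also occur in another annotated gene, and their counts are uncertain. KRAB members made up 39 of these 63.

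The libraries held 15368941 to 41072854 counts, with a median of 23257531, and every WT LPS library was deeper than every *Ubqln1*-/- LPS library. *Ubqln1* itself was at 64.2, 64.1 and 62.3 RPKM in resting WT cells and at 25.2, 24.8 and 28.8 RPKM in resting *Ubqln1*-/- cells, with no overlap between genotypes in any condition. RPKM is the count divided by the exon length of the gene and by the scaled library size, on the usual scale. Defining B cell genes were abundant: *Cd79a*, *Cd79b*, *Ms4a1*, *Pax5*, *Cd22*, *Cr2* and *Fcer2a* summed to 3603 to 4222 RPKM in resting WT cells, 1280.0 to 1659 with anti-IgM and 3000.2 to 3711 with LPS. These sums join genes that moved apart, as WT means at rest, with anti-IgM and with LPS show. *Cr2* was higher with both stimuli (38.6, 49.5 and 60.2 RPKM), and *Fcer2a* only with LPS (256, 150 and 793 RPKM). *Cd79a*, *Cd79b*, *Ms4a1* and *Cd22* were lower with both, and *Pax5* was at 149, 43.2 and 154 RPKM. The T cell list summed to 26.5 to 35.5 RPKM at rest, 58.1 to 98.9 with anti-IgM and 19.4 to 25.8 with LPS in WT cells. *Lck* and *Cd247* made up nearly all of it, and *Cd3e*, *Cd3d*, *Cd3g*, *Cd4* and *Cd8a* were at or below 0.35 RPKM in every library. Myeloid markers summed to 11.1 to 17 RPKM at rest in WT cells and were lower in both stimulated groups (6.72 to 9.54 with anti-IgM and 4.82 to 6.29 with LPS). NK cell markers summed to at most 1.61 RPKM and erythroid markers to at most 5.23 RPKM in any library. The part of these shifts in the results was not tested. All levels are relative to the mRNA of their own library, so less mRNA of a gene per cell and more of all other mRNA cannot be told apart, nor can fewer cells of a type and less RNA per cell.

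The members spanned a wide range of levels. Averaged over all libraries, 101 of 270 were above 10 RPKM, the median was 7.39 RPKM and the lowest was 0.943 RPKM. The 8 highest were, in order, *Zfp36l1* (208 RPKM), *Zfp36* (152 RPKM), *Zfp598* (58 RPKM), *Zfp106* (57.3 RPKM), *Zfp207* (56.7 RPKM), *Zfp36l2* (55.1 RPKM), *Zfp740* (51.4 RPKM) and *Zfp52* (50.1 RPKM). All 3 AU-rich element binding genes were thus among the 8 most abundant members, and *Zfp52* was the only KRAB member among them.

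Anti-IgM lowered far more members than it raised. In WT cells 129 of 270 members (47.8%) fell and 38 (14.1%) rose at an adjusted p under 0.05 (edgeR quasi-likelihood test, Benjamini-Hochberg over 14161 genes). Over all genes tested, 32.2% fell and 32.4% rose. The median log2 fold change was -0.17 for the members and -0.01 for all genes. In *Ubqln1*-/- cells 124 members fell and 37 rose, against 32.4% and 32.9% of all genes, and the median was again -0.17. The 2 genotypes share no library here: 114 members fell in both, which is 88.4% of those that fell in WT cells and 91.9% of those that fell in *Ubqln1*-/- cells. No member that changed in one genotype changed the other way in the other. The same overlap was not counted over all genes, so neither result is read as particular to the members.

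Most changes were small. Only 12 members fell and 3 rose more than 2-fold in WT cells with anti-IgM, or 4.44% and 1.11%, where 11.1% and 9.49% of all genes did. The median size of the change was 0.30 on the log2 scale for the members and 0.47 for all genes.

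The response to LPS leaned the same way. In WT cells 113 members (41.9%) fell and 45 (16.7%) rose, against 30.1% and 31.2% of all genes, and the median log2 fold change was -0.13 beside -0.01 for all genes. In *Ubqln1*-/- cells 121 fell and 46 rose, against 30.2% and 30.6% of all genes, with a member median of -0.17. Both genotypes shared 104 of the falls, 92% of the WT list and 86% of the *Ubqln1*-/- list, again without a count over all genes. Over 2-fold, 10 members fell and 3 rose in WT cells, where 7.94% and 7.84% of all genes did. The anti-IgM and LPS comparisons of a genotype use the same resting libraries, so their values are given side by side without a test of likeness.

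The falls lay mainly in the KRAB class. With anti-IgM in WT cells, 85 of 143 KRAB members (59.4%) fell and 11 (7.69%) rose, with a median log2 fold change of -0.31. Among the 117 C2H2 members without KRAB, 41 (35%) fell and 24 (20.5%) rose, with a median of -0.03. Of all genes 32.2% fell and 32.4% rose, so the falls of that class were near this background and its rises below it. In *Ubqln1*-/- cells 84 KRAB members (58.7%) fell and 11 (7.69%) rose. Of the C2H2 members without KRAB 38 (32.5%) fell and 23 (19.7%) rose, against 32.4% and 32.9% of all genes. With LPS the KRAB counts were 66 (46.2%) lower and 12 (8.39%) higher in WT cells (median -0.20). In *Ubqln1*-/- cells they were 73 (51%) and 13 (9.09%), with a median of -0.26. Of all genes 30.1% were lower and 31.2% higher in WT cells, and 30.2% and 30.6% in *Ubqln1*-/- cells. The C2H2 members without KRAB gave 41 (35%) lower and 30 (25.6%) higher in WT cells with LPS (median -0.06). The difference between the classes was described by these counts and not tested.

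**Figure D1:**
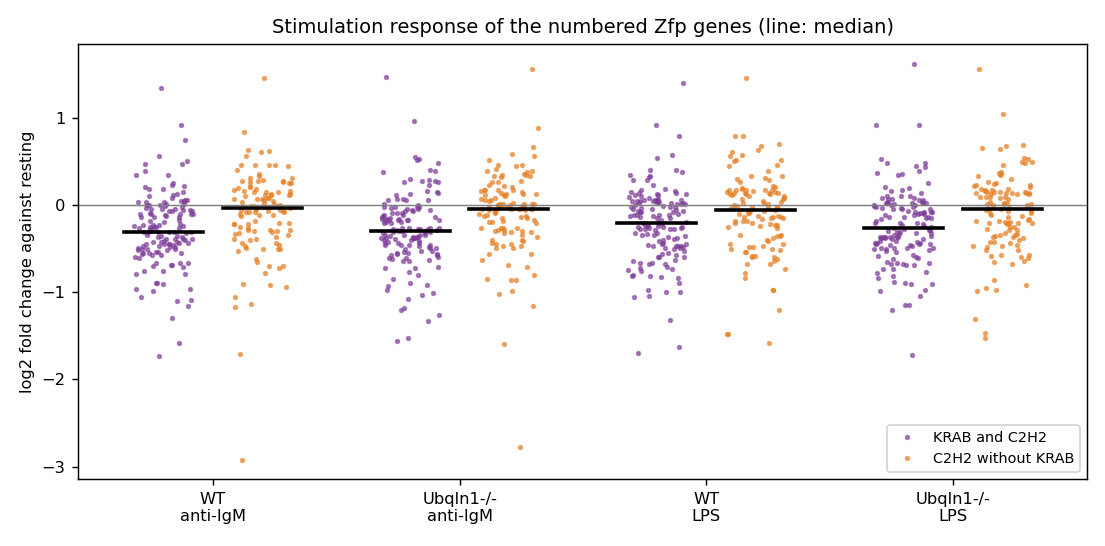
Log2 fold change against resting cells (vertical axis) of each member, for anti-IgM and LPS in WT and *Ubqln1*-/- cells, with KRAB members in purple and C2H2 members without KRAB in orange, the black line being the median. The KRAB median lies lower than the other in all 4 comparisons, at -0.31 against -0.03 for anti-IgM in WT cells.

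The summed counts of both classes were lower in every stimulated library. KRAB members took 0.423, 0.396 and 0.41% of the counts in resting WT cells, 0.350, 0.347 and 0.327% with anti-IgM and 0.358, 0.352 and 0.347% with LPS. Every stimulated library was below every resting one, in *Ubqln1*-/- cells too, where resting cells had 0.406 to 0.43% and stimulated cells 0.342 to 0.361% (anti-IgM) and 0.347 to 0.356% (LPS). The C2H2 members without KRAB went from 0.772 ± 0.0247% (SD, n = 3) at rest in WT cells to 0.705 ± 0.0168% with anti-IgM and 0.721 ± 0.0176% with LPS. In that class too every stimulated library, at 0.733% or less, was below every resting one, at 0.753% or more, in both genotypes. These shares use unscaled library totals. The scaling factors of the fit ran from 0.958 to 1.038, a wider range than this gap.

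**Figure D2:**
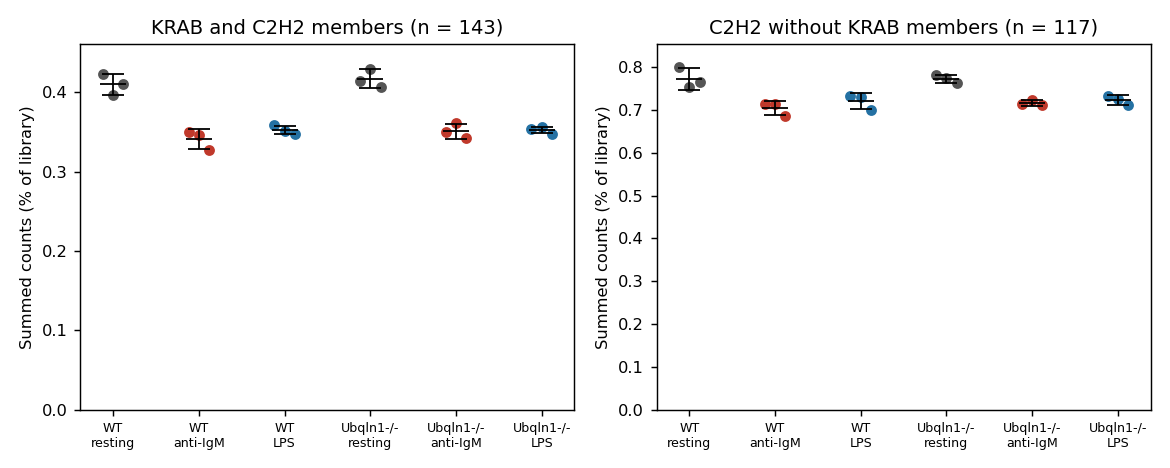
Summed counts of the KRAB members (left) and of the C2H2 members without KRAB (right) as a percentage of all counts of each library, with 1 point per library and the mean ± SD per group. In the KRAB panel the 6 resting libraries lie at 0.396% or more and the 12 stimulated libraries at 0.361% or less, and in the other panel at 0.753% or more and 0.733% or less.

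The steepest fall belonged to *Zfp831*, a C2H2 gene on chromosome 2 (chr2:174598682-174710832, GRCm38). In WT cells it stood at 17, 12.4 and 14.5 RPKM at rest, 2.33, 1.54 and 1.92 RPKM with anti-IgM and 5.84, 4.02 and 5.91 RPKM with LPS. The 3 conditions did not overlap, with anti-IgM lowest and LPS between. Its log2 fold change was -2.92 (SE 0.17), a 7.56-fold fall, with anti-IgM (edgeR adjusted p = 9.7e-10) and -1.48 (SE 0.16) with LPS. *Ubqln1*-/- cells gave -2.77 (SE 0.17) and -1.52 (SE 0.16).

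*Zfp69*, a KRAB gene on chromosome 4 (chr4:120930133-120951701), fell as far with either stimulus. Its levels in WT cells were 7.65, 5.77 and 5.16 RPKM at rest, 1.6, 1.7 and 2.29 RPKM with anti-IgM and 1.82, 1.97 and 1.92 RPKM with LPS. Both stimulated groups lay below every resting library, with log2 fold changes of -1.74 (SE 0.16) and -1.69 (SE 0.15) in WT cells and -1.56 (SE 0.15) and -1.72 (SE 0.15) in *Ubqln1*-/- cells. Another KRAB gene, *Zfp61*, went from 4.26 ± 0.521 RPKM (SD, n = 3) at rest to 1.72 ± 0.362 with anti-IgM and 1.38 ± 0.226 with LPS.

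In other members the estimated fall was larger with one stimulus than with the other, both estimates using the same resting libraries. *Zfp710* measured 23, 19.4 and 18.4 RPKM in resting WT cells, 6.45, 5.54 and 6.56 RPKM with anti-IgM and 11.3, 8.98 and 10.6 RPKM with LPS, so it was lowest with anti-IgM. Compared directly, LPS exceeded anti-IgM for *Zfp710* by 0.73 (SE 0.10) on the log2 scale in WT cells. For the other members of this paragraph the direct comparison of the stimuli is not given. *Zfp395* ran the other way, from 19.1 ± 1.09 RPKM at rest to 8.69 ± 0.225 with anti-IgM and 6.88 ± 0.85 with LPS in WT cells, log2 fold changes of -1.14 (SE 0.11) and -1.47 (SE 0.11). *Zfp385a*, which encodes a modulator of p53 target choice, fell by 1.58 (SE 0.24) on the log2 scale with LPS and by 0.94 (SE 0.23) with anti-IgM. The largest falls also took in *Zfp821* (-1.16 with anti-IgM, -1.20 with LPS), *Zfp961* (-1.16 and -0.83) and the KRAB gene *Zfp273* (-0.91 and -1.32), all as log2 fold changes in WT cells. For *Zfp273*, 24.3% of its 50-base stretches also occur in another gene, chiefly *Zfp85*.

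The largest rise in WT cells with each stimulus was that of *Zfp593*, a single-finger gene whose yeast relative helps export the large ribosomal subunit (chr4:134243306-134245591). WT cells had 9.12, 15.3 and 13.3 RPKM at rest, 30.7, 36.3 and 37.9 RPKM with anti-IgM and 34.9, 38.3 and 31 RPKM with LPS. All stimulated libraries exceeded all resting ones, with log2 fold changes of 1.46 (SE 0.14) and 1.45 (SE 0.14) in WT cells and 1.56 (SE 0.14) and 1.56 (SE 0.15) in *Ubqln1*-/- cells. Of its 50-base stretches 68.2% also lie in *E130218I03Rik*, and the library kit does not mark strand, so reads of the pair cannot be told apart.

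Against the lean of its class, the KRAB gene *Zfp202* rose: 1.09, 1.31 and 1.81 RPKM at rest, 3.32, 3.39 and 4.06 RPKM with anti-IgM and 3.59, 3.96 and 3.57 RPKM with LPS in WT cells. The log2 fold changes were 1.35 (SE 0.15) and 1.40 (SE 0.15) in WT cells and 1.47 (SE 0.15) and 1.62 (SE 0.15) in *Ubqln1*-/- cells. The lncRNA *Zfp783* rose by 1.43 (SE 0.14) with anti-IgM and 1.07 (SE 0.14) with LPS in WT cells on the log2 scale. *Zfp566* (KRAB) rose by 0.92 and 0.79, *Zfp599* (KRAB) by 0.74 and 0.92, and *Zfp770* by 0.64 and 0.80, in the same order and scale, all with an adjusted p under 0.05 in both genotypes. Of the transcript of *Zfp566*, 15.7% of stretches are shared with another gene.

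**Figure D3:**
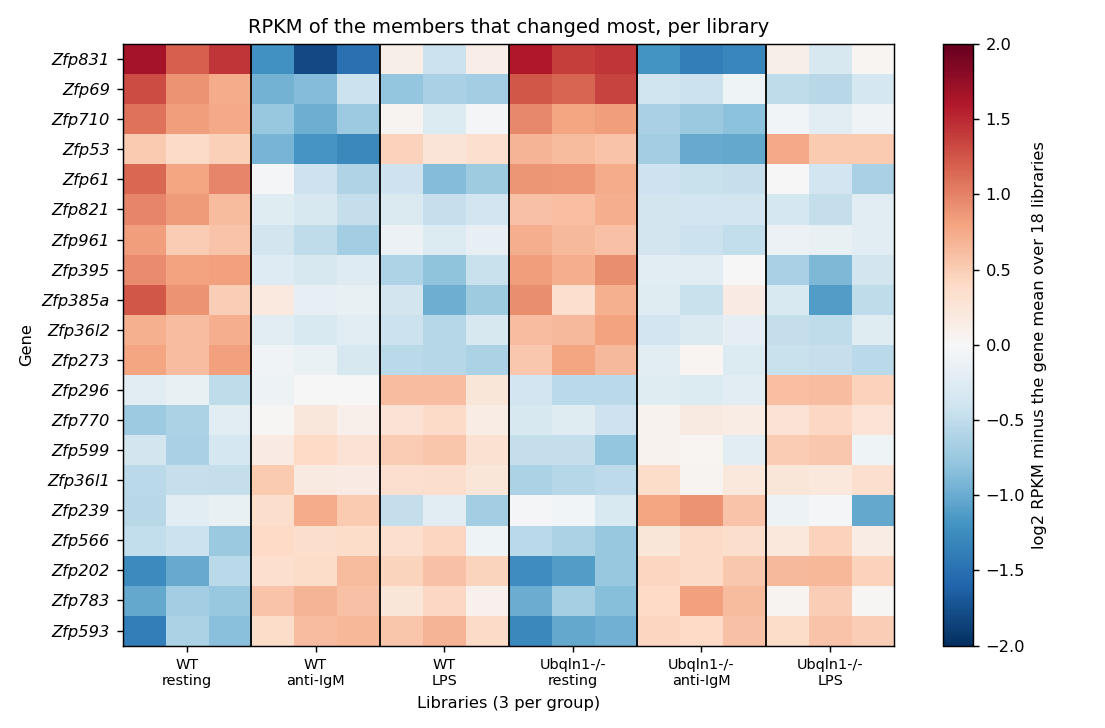
Log2 RPKM minus the gene's mean over the 18 libraries (colour) for the 20 members with the largest falls and rises, with libraries in columns, 3 per group, and genes ordered by their anti-IgM change in WT cells. *Zfp831* at the top falls by 2.92 and *Zfp593* at the bottom rises by 1.46 with anti-IgM in WT cells, and the WT and *Ubqln1*-/- blocks show the same colours.

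The LPS and anti-IgM libraries were also compared directly. In WT cells 43 members (15.9%) were higher with LPS and 23 (8.52%) lower, against 17.4% and 15% of all genes. In *Ubqln1*-/- cells the counts were 41 and 27, against 16.8% and 14.5%. Over 2-fold, 2 members were higher and 0 lower with LPS in WT cells, where 5.52% and 3.91% of all genes were.

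*Zfp53*, a KRAB gene on chromosome 17, separated the stimuli most. It was at 16.5, 14.9 and 15.8 RPKM in resting WT cells, 6, 5.06 and 4.7 RPKM with anti-IgM and 15.7, 13.7 and 14.4 RPKM with LPS. Anti-IgM libraries lay below all others, and the resting and LPS ranges overlapped. *Ubqln1*-/- cells repeated the pattern, at 18.3, 17.7 and 16.9 RPKM at rest, 7.07, 5.72 and 5.6 RPKM with anti-IgM and 19.4, 16.5 and 16.5 RPKM with LPS. LPS exceeded anti-IgM by 1.47 (SE 0.10) on the log2 scale in WT cells and 1.5 (SE 0.10) in *Ubqln1*-/- cells (edgeR adjusted p = 9.29e-09 and 7.74e-09). *Zfp383* (KRAB) was likewise lower with anti-IgM than with LPS (log2 difference 0.63 (SE 0.10)), with log2 fold changes against resting of -0.69 for anti-IgM and -0.07 (adjusted p = 0.605, edgeR) for LPS in WT cells.

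Other members were highest with LPS or with anti-IgM. *Zfp62* reached 54.9, 57.7 and 52.6 RPKM with LPS in WT cells, above its 35.4, 33.9 and 37.7 RPKM at rest and 32.3, 33.9 and 32.8 RPKM with anti-IgM. *Zfp296* rose by 0.79 (SE 0.10) on the log2 scale with LPS and 0.25 (SE 0.10) with anti-IgM in WT cells, and 14.4% of its stretches lie in another gene, chiefly *Gemin7*. *Zfp239* rose with anti-IgM, from 1.75, 2.23 and 2.32 RPKM to 3.28, 4.34 and 3.73 RPKM in WT cells, and had 1.86, 2.2 and 1.59 RPKM with LPS. Its LPS value differed from resting by -0.16 (SE 0.20) (edgeR adjusted p = 0.524), and from anti-IgM by -1.0 (SE 0.20) (adjusted p = 0.000735).

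*Zfp703*, a corepressor gene of the NET family, fell with LPS, from 7.19 ± 0.876 RPKM to 3.99 ± 0.15 RPKM (SD, n = 3) in WT cells, and stood at 7.45 ± 0.396 RPKM with anti-IgM. *Zfp28* and *Zfp382*, both KRAB genes, also fell with LPS, by 0.71 and 0.73 on the log2 scale in WT cells, and had -0.06 and -0.14 with anti-IgM, neither past the threshold. *Zfp367* was called in opposite directions in WT cells, at 0.33 with anti-IgM and -0.51 with LPS. *Zfp691* was lower with LPS than with anti-IgM by 0.61 (SE 0.14) on that scale.

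The AU-rich element binding genes behaved differently from one another. *Zfp36*, which encodes tristetraprolin, measured 168, 162 and 158 RPKM in resting WT cells, 177, 156 and 163 RPKM with anti-IgM and 142, 130.5 and 144 RPKM with LPS. The anti-IgM range overlapped the resting range, with a log2 difference of 0.02 (SE 0.07), and LPS gave -0.23 (SE 0.07) (edgeR adjusted p = 0.0124). *Zfp36l1* rose from 137, 146 and 143 RPKM to 287, 227 and 224 RPKM with anti-IgM and 254, 255 and 237 RPKM with LPS. *Zfp36l2* fell from 84.6, 79.8 and 85.9 RPKM to 44.8, 41.9 and 44.8 RPKM with anti-IgM and 38.5, 35 and 41.3 RPKM with LPS. Stimulated and resting libraries of these paralogs did not overlap: the log2 fold changes of *Zfp36l1* were 0.79 (SE 0.09) and 0.81 (SE 0.09) and those of *Zfp36l2* -0.93 (SE 0.08) and -1.12 (SE 0.08) in WT cells. In *Ubqln1*-/- cells *Zfp36l1* gave 0.80 and 0.84, and *Zfp36l2* -0.97 and -1.10. For *Zfp36l1*, 56.9% of its stretches are shared with the overlapping annotated gene *Gm26669*.

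Their partners in mRNA decay were taken as a list of CCR4-NOT subunits, decapping factors and related genes, of which 27 of 28 were found and tested. With anti-IgM 11 rose and 8 fell in WT cells (median log2 fold change 0.12), and with LPS 10 rose and 3 fell (median 0.05). Over all genes 32.4% rose and 32.2% fell with anti-IgM, and 31.2% and 30.1% with LPS. *Btg2*, an antiproliferative gene that binds the deadenylase, fell by 1.20 (SE 0.13) with anti-IgM and its relative *Tob1* by 0.86 (SE 0.12) with LPS on the log2 scale. The largest rises called in both genotypes were *Cnot8*, a deadenylase subunit, with anti-IgM (0.99, SE 0.20) and *Cnot9* with LPS (0.52, SE 0.06).

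Members with roles in protein synthesis, ubiquitin or SUMO rose or were not called, as was so for *Zfp706* and *Zfp106*. *Zfp598*, the ubiquitin ligase that marks collided ribosomes, went from 39.8, 45 and 42.7 RPKM at rest to 63.9, 68.5 and 64.3 RPKM with anti-IgM and 64.6, 73 and 56.7 RPKM with LPS in WT cells. No stimulated library overlapped a resting one, and the log2 fold changes were 0.62 (SE 0.08) and 0.61 (SE 0.08). *Zfp91*, a ubiquitin ligase gene, rose by 0.20 and 0.22. *Zfp451*, a SUMO ligase gene, rose by 0.61 (SE 0.09) and 0.56 (SE 0.09). *Zfp622*, whose product acts in maturation of the large ribosomal subunit, gave 0.08 and 0.05, neither past the threshold, and *Zfp706* gave 0.07 and 0.02. The RNA-binding gene *Zfp106* rose by 0.46 and 0.52, with 25.2% of its stretches shared with another gene. These values are log2 fold changes in WT cells with anti-IgM and LPS, in that order.

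Chromatin and transcription regulators among the members gave mixed directions. *Zfp318*, which B cells need to express IgD, was at 40.3, 31.6 and 33 RPKM in resting WT cells, 26.7, 23.4 and 23.6 RPKM with anti-IgM and 31.9, 32.3 and 33.8 RPKM with LPS. Anti-IgM lowered it by 0.51 (SE 0.08) on the log2 scale, and the LPS difference was -0.10 (SE 0.08) (edgeR adjusted p = 0.319). *Zfp592* and *Zfp687*, which encode partners in one chromatin complex, fell by 0.72 and 0.31 with anti-IgM. With LPS they fell by 0.54 and 0.23. *Zfp217*, linked to the CoREST corepressor, had -0.70 and -0.58, *Zfp292* -0.46 and -0.60, and *Zfp335*, needed for mature T cells, -0.5 and -0.35, all called. Of *Zfp335*, 20.3% of the stretches lie in another gene, chiefly *Pcif1*. *Zfp281* rose by 0.45 and 0.33. No call was made for *Zfp143* (-0.20 and 0.17), *Zfp148* (-0.02 and 0.02), *Zfp410*, the activator of *Chd4* (-0.06 and -0.14), the spindle gene *Zfp207* (0.07 and 0.14) or the splicing gene *Zfp830* (0.04 and 0.15) in WT cells. With the replicate block (edgeR) *Zfp143* was called with anti-IgM and LPS (adjusted p = 0.00339 and 0.0104), and *Zfp207* and *Zfp830* with LPS (0.0169 and 0.0177). *Zfp384*, a fusion partner in B cell leukaemia, gave 0.11 (not called) and 0.14 (called), and with the block the first passed too (edgeR adjusted p = 0.0467). The abundant *Zfp740* fell by 0.52 and 0.48.

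Cofactor transcripts of the KRAB proteins were more often higher than lower. Of 20 tested genes of the TRIM28 and heterochromatin list, 10 rose and 6 fell with anti-IgM in WT cells, and 11 rose and 2 fell with LPS. Over all genes 32.4% rose and 32.2% fell with anti-IgM, and 31.2% and 30.1% with LPS, so the falls with anti-IgM were near the background. The medians were 0.17 and 0.27, beside -0.01 and -0.01 for all genes. *Trim28* rose by 0.68 (SE 0.07) and 0.55 (SE 0.07) and *Setdb1* by 0.43 and 0.34 on the log2 scale. The DNA methyltransferase gene *Dnmt3b* rose most (1.34 and 1.04), from 3.32 ± 0.163 RPKM (SD, n = 3) at rest, and *Atf7ip*, the stabilizer of SETDB1, fell most (-1.04 and -0.65). In *Ubqln1*-/- cells 9 rose and 6 fell with anti-IgM, and 11 and 3 with LPS.

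Neighbouring members were compared along the chromosomes, a grouping chosen after the values were seen. On chromosome 17 a run of 18 members, with starts at most 500 kb apart, extends from *Zfp160* to *Zfp213* (chr17:21008941-23564226), and 17 of them are KRAB genes. With anti-IgM 14 fell in WT cells and 12 in *Ubqln1*-/- cells, and with LPS 10 and 11. *Zfp213*, the 1 member of the run without KRAB, rose with anti-IgM by 0.31 in WT cells, and 52.3% of its stretches are shared with another gene. The run was not uniform: *Zfp53* fell 2.99-fold with anti-IgM, while its neighbour *Zfp52* differed by 0.04 (SE 0.08) on the log2 scale. A second run on chromosome 17, 10 members from *Zfp871* to *Zfp414*, had 7 falls with anti-IgM in each genotype. On chromosome 13 a run of 20 KRAB members from *Zfp712* to *Zfp273* had 10 falls with anti-IgM and 6 with LPS in WT cells. On chromosome 7, 14 members from *Zfp84* to *Zfp146* split into 3 rises and 6 falls with anti-IgM in WT cells. Other runs held 4 KRAB genes among 9 members (chromosome 6, *Zfp398* to *Zfp775*) and, on chromosome 7, 4 of 6 (*Zfp606* to *Zfp446*). Also on chromosome 7 were runs with 6 of 8 (*Zfp60* to *Zfp36*) and 4 of 10 (*Zfp553* to *Zfp646*). In that order, with anti-IgM in WT cells, 4, 3, 4 and 5 members fell and 1, 1, 2 and 1 rose. In *Ubqln1*-/- cells 4, 3, 5 and 3 fell and 1, 1, 1 and 2 rose. Of all genes, 32.2% fell with anti-IgM and 30.1% with LPS in WT cells. The runs on chromosomes 13 and 17 consist mainly of KRAB genes, and of all KRAB members 59.4% fell with anti-IgM and 46.2% with LPS in WT cells. In *Ubqln1*-/- cells 58.7% and 51% of KRAB members fell, against 32.4% and 30.2% of all genes. Whether position mattered beyond class was not tested.

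**Figure D4:**
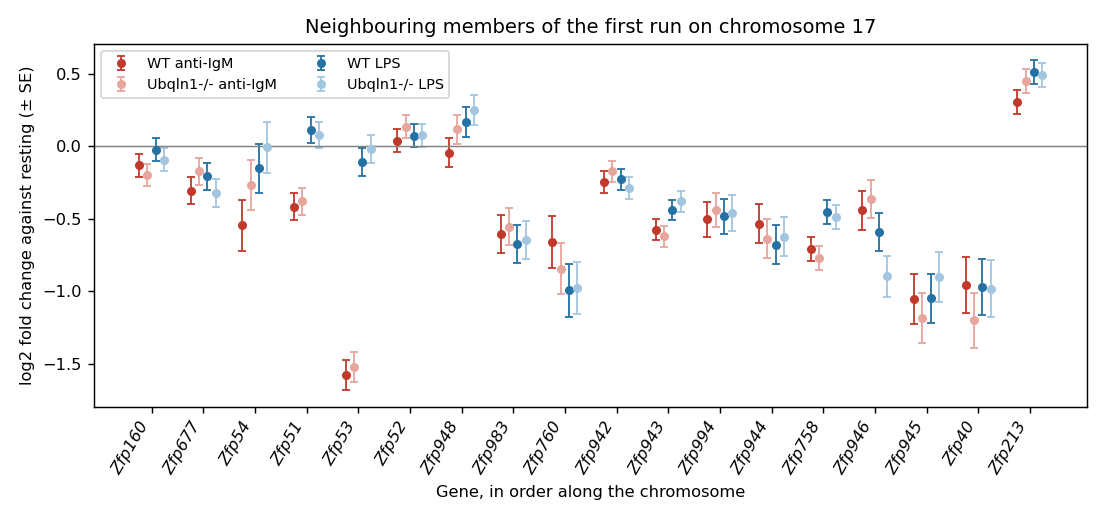
Log2 fold change against resting cells with its SE (vertical axis) for the 18 neighbouring members from *Zfp160* to *Zfp213* in chromosomal order, for anti-IgM (red shades) and LPS (blue shades) in WT and *Ubqln1*-/- cells. *Zfp53* lies at -1.58 and -1.52 with anti-IgM and near 0 with LPS, and its neighbours *Zfp52* and *Zfp948* lie near 0 with anti-IgM.

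Promoter sequences (RefSeq, GRCm38.p6, 250 bases before to 50 after the start) were found for 227 of 270 members. On both strands 5 motifs were searched: the E-box CACGTG, the cAMP response element TGACGTCA, the ETS core CCGGAAG, the EGR site GCGTGGGCG and the NF-kB motif. The E-box CACGTG was in 7 of 36 promoters (19.4%) of members that rose with anti-IgM in WT cells and in 9 of 132 (6.82%) of those that fell. It was in 7.15% of all promoters and 10% of those of genes tested. The ETS core CCGGAAG was in 21.7% of member promoters, 17.6% of those of genes tested and 8.86% of all. TGACGTCA was in 3.99% of member promoters, 3.06% of those of genes tested and 1.79% of all. In the same order GCGTGGGCG was in 0.362%, 1.21% and 0.612%, and the NF-kB motif in 2.9%, 5.14% and 4.51%. A gene with several annotated starts has several promoters here. Split the same way by rise and fall with anti-IgM in WT cells, CCGGAAG was in 25% and 21.2%, and TGACGTCA in 2.78% and 4.55%. GCGTGGGCG was in 2.78% and 0%, and the NF-kB motif in 2.78% and 3.79%. These shares are descriptions without a test.

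Shown here are the promoters of *Zfp202*, the KRAB gene with the largest rise with LPS, *Zfp69*, the KRAB gene with the largest fall, and the neighbours *Zfp53* and *Zfp52*. Each is 5′ to 3′ on the gene's own strand, with capitals marking matches to the motifs above. They lie at chr9:40192066-40192365 (plus strand), chr4:120951652-120951951 (minus strand), chr17:21488738-21489037 (plus strand) and chr17:21535289-21535588 (plus strand).
Zfp202: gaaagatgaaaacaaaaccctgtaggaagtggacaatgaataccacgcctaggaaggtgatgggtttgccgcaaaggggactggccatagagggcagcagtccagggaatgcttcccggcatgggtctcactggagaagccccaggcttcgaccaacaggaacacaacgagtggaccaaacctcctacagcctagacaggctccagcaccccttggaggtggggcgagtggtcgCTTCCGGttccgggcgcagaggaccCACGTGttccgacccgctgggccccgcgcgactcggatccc
Zfp69: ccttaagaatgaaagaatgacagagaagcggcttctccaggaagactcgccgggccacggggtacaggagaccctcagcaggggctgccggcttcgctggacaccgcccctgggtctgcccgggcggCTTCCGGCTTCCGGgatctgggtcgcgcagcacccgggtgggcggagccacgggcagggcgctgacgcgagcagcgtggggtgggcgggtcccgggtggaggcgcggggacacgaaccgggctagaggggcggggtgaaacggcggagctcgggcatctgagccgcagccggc
Zfp53: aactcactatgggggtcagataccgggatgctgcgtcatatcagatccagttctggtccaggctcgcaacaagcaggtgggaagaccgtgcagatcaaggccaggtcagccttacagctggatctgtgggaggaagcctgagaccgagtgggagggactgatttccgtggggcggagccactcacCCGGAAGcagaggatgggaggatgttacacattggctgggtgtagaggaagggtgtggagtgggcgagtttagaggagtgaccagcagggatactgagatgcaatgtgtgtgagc
Zfp52: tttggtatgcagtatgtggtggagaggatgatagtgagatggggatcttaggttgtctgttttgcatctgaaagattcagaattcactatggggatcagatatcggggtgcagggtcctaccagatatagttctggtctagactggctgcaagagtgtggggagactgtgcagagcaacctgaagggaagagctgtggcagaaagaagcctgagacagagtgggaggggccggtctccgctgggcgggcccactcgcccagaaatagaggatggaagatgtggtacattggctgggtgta

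*Zfp202* holds 1 E-box and 1 ETS core, *Zfp69* and *Zfp53* hold the ETS core, and *Zfp52* holds none of the 5 motifs in this window. The best local alignment of the *Zfp52* and *Zfp53* windows had 173 identical positions in 230 columns (75.2%), while 0.869% of the *Zfp52* and 0.497% of the *Zfp53* stretches of 50 transcript bases occur in another gene.

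Few members differed between genotypes. At an adjusted p under 0.05, 0 members differed between genotypes at rest, 1 with anti-IgM and 0 with LPS, and 0.0565%, 0.0989% and 0.0424% of all genes did (edgeR). At an unadjusted p under 0.05 the members were 10, 11 and 8, or 3.7, 4.07 and 2.96%, where 4.22, 5.14 and 3.93% of all genes were. DESeq2 called 1 member in each condition and limma with voom called 0, 1 and 0. The interaction of genotype with anti-IgM or LPS passed for 0 members in edgeR, limma and DESeq2, and for 0 of all 14161 genes in edgeR. At an unadjusted p under 0.05 (edgeR) the members were 2 and 4, or 0.741 and 1.48%, where 0.989 and 1.55% of all genes were.

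With the replicate number as a block (edgeR), 1 member was called at rest, 3 with anti-IgM and 2 with LPS, all higher in *Ubqln1*-/- cells, where 0.346, 0.664 and 0.883% of all genes were called in either direction. *Zfp839* was called in all 3 conditions, with a blocked adjusted p of 0.0304 at rest, 0.00495 with anti-IgM and 0.043 with LPS. The others were *Zfp41* (0.0416) and *Zfp846* (0.0489) with anti-IgM and *Zfp53* (0.0435) with LPS, of which *Zfp846* and *Zfp53* were chosen here after their values were seen. Without the block their log2 differences were 0.41 (SE 0.09), 0.49 (SE 0.14) and 0.26 (SE 0.10), with an adjusted p of 0.141, 0.394 and 0.988. *Zfp846* was at 2.09, 2.06 and 1.76 RPKM in WT and 2.8, 2.83 and 2.72 RPKM in *Ubqln1*-/- cells with anti-IgM.

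The member called without the block was *Zfp839*, with anti-IgM, on chromosome 12 (chr12:110850251-110870006). With anti-IgM it stood at 5.03, 5.18 and 5.17 RPKM in WT and 6.53, 6.89 and 7.07 RPKM in *Ubqln1*-/- cells, at rest at 6.8, 7.16 and 6.22 and 8.88, 8.42 and 8.14 RPKM, and with LPS at 4.5, 4.82 and 4.53 and 6.01, 5.86 and 5.17 RPKM. The genotypes did not overlap in any condition, *Ubqln1*-/- being higher in each. Libraries with the same replicate number were taken as pairs, so the conditions are not independent of one another. The log2 differences were 0.41 (SE 0.07) with anti-IgM (edgeR adjusted p = 0.0399), 0.33 (SE 0.07) at rest (adjusted p = 0.144) and 0.30 (SE 0.07) with LPS (adjusted p = 0.244). The call did not hold without any 1 of the 6 anti-IgM libraries, where the adjusted p was 0.112 to 0.262, nor when only those 6 libraries were fitted (0.35). Both genotypes lowered *Zfp839* on stimulation, by 0.39 and 0.54 on the log2 scale in WT cells with anti-IgM and LPS.

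Without the block the next smallest p-values did not pass. *Zfp64*, a regulator of the *Kmt2a* (MLL) promoter, was at 5.3, 5.4 and 5.71 RPKM in WT and 6.3, 7.71 and 7.14 RPKM in *Ubqln1*-/- cells with LPS, a log2 difference of 0.37 (SE 0.09) (edgeR adjusted p = 0.244). Also short of the threshold, *Zfp219* gave -0.28 with LPS (adjusted p = 0.915), *Zfp41* gave 0.41 with anti-IgM (adjusted p = 0.141), *Zfp219* gave -0.28 at rest (adjusted p = 0.909) and *Zfp629* gave -0.37 at rest (adjusted p = 0.708), by edgeR. The plasma cell list (*Sdc1*, *Prdm1*, *Jchain*, *Xbp1*) also differed between genotypes, summing to 159 to 272 RPKM in WT and 129 to 143 RPKM in *Ubqln1*-/- cells at rest, and its part in these values was not tested.

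**Figure D5:**
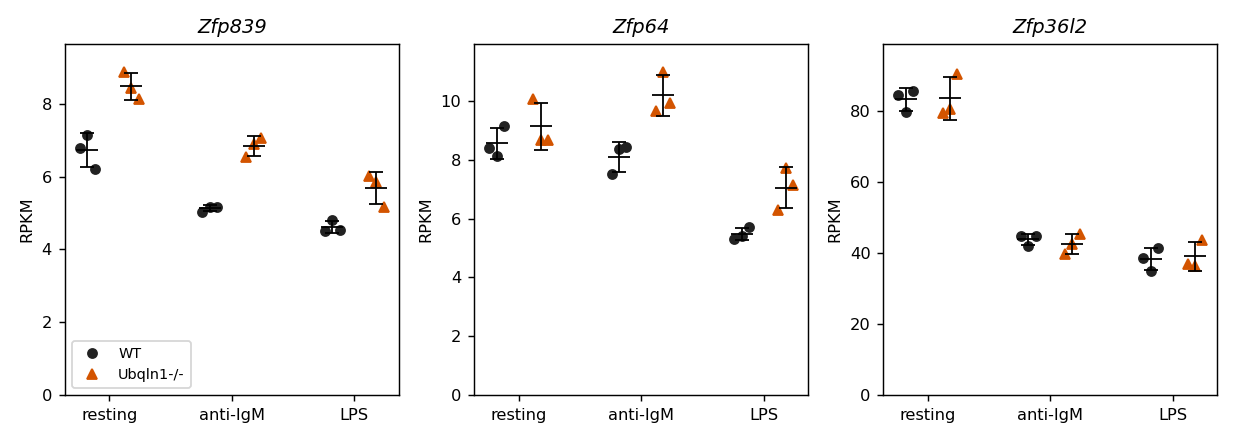
RPKM (vertical axis, from 0) of *Zfp839*, *Zfp64* and *Zfp36l2* in WT (black circles) and *Ubqln1*-/- cells (orange triangles) at rest, with anti-IgM and with LPS, with 1 point per library and the mean ± SD. *Zfp839* is higher in *Ubqln1*-/- cells in every condition, and *Zfp36l2* falls from 83.4 ± 3.2 RPKM at rest to 38.3 ± 3.16 with LPS in WT cells with overlapping genotypes.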

How the data were processed

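Polyadenylated RNA from 18 samples (6 groups of 3) was sequenced as single-end 50 base reads. The authors aligned them to GRCm38 with GSNAP and deposited, per the labels and file headers, a raw count and an RPKM for each Entrez gene in each library. The counting tool is not given in the sources used here. The deposited RPKM and width columns were not tested. The RPKM printed here was recomputed from the deposited count, the gene width and the TMM-scaled library size. The submitters' processing notes name limma and R 3.2.2.

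Symbols and positions came from a RefSeq gene table of GRCm38.p6, which named 25035 of 28096 genes. Counts were fitted with edgeR 4.0.16 (R 4.3.3): TMM, its expression filter (14161 genes), 1 term per group over all 18 libraries, quasi-likelihood test, Benjamini-Hochberg adjustment, SE as the log2 fold change divided by the square root of F. All 270 members passed the filter. The study used limma with voom, which was an alternative (limma 3.58.1), as was DESeq2 1.42.0. Other alternatives were RLE scaling, both filters, the replicate block, fits of the compared groups alone, a size criterion of 1 on the log2 scale, other member minimums and leaving out each sample. The scripts were tested on simulated data.

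Members, gene lists and tests were chosen with earlier results of these data known. Genes named are those with a known role, the 8 largest rises and falls per stimulus and 6 per direction between stimuli (called and without overlap in both genotypes), the 3 smallest p per genotype comparison and any call, the 8 most abundant, and the 3 nearest the minimum on each side. From each list of other genes, the largest rise and fall per stimulus called in both genotypes were named, with *Trim28* and *Setdb1* added after their values were seen. *Zfp213* was also chosen after its values were seen, as were the genes that bound the runs of neighbours. *Zfp57* was on the list of roles but is no member, and 1 gene of the B cell marker list is not reported here.

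Fingers and KRAB matches (at least 13 of 21 scored positions) were searched in the longest protein of each gene, translated from GENCODE M21 transcripts. Stretches of 50 bases were matched on both strands between annotated genes, overlapping genes included. Unnumbered titles were taken as replicate 1, since 2 and 3 were named. The study describes independent experiments and paired tests for these libraries, so replicate numbers were taken to pair them. Deviations from the group means correlated at 0.055 to 0.516 over 45 same-numbered pairs, 43 of them over 0.1, and 18 of 18 samples correlated best with their own number. The reported fit has no block, after the single-term models of the study. Blocked values are given for the genotype calls and for *Zfp143*, *Zfp207*, *Zfp830* and *Zfp384* in WT cells, and blocked counts of members called are given below. Replicates of a group differed by more than sampling noise (chi-square of at least 8.05 per gene). P-values measure the spread between these libraries.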

Additional observations from a re-analysis of the deposited data

How the results depend on the processing

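Under the alternatives for tool, scaling, filter, samples and member minimum, the members called against resting stayed between 132 and 187 in each of the 4 comparisons, and the falls outnumbered the rises in each. Among the 207 members that share at most 10% of their stretches with another gene, an alternative chosen after seeing the data, 123 to 127 were called. A log2 fold change over 1 left 15 (WT anti-IgM), 16 (*Ubqln1*-/- anti-IgM), 13 (WT LPS) and 13 (*Ubqln1*-/- LPS), and 2 and 3 between LPS and anti-IgM in WT and *Ubqln1*-/- cells. Fitting only the groups compared gave 42 in place of 66 between LPS and anti-IgM in WT cells; the cause was not tested beyond the smaller number of libraries. Between genotypes DESeq2 called 1 member at rest (*Zfp839*) and 1 with LPS (*Zfp64*). With anti-IgM the single call became 0 with no filter, with only the groups compared, with the log2 fold change over 1 and without any 1 of the 6 libraries (lowest 0, highest 0). KRAB members lower with anti-IgM in WT cells ranged from 68 to 88.

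With the replicate block the members called were 184 (WT anti-IgM), 187 (*Ubqln1*-/- anti-IgM), 180 (WT LPS), 184 (*Ubqln1*-/- LPS), 94 and 95 (LPS against anti-IgM, WT and *Ubqln1*-/-), and between genotypes 1 at rest, 3 with anti-IgM and 2 with LPS, with 0 and 0 interactions. For the stimulus comparisons the share of all genes called with the block is not given here. The larger counts are therefore not read as a trait of the members. Of 187 log2 fold changes of named members, 13 that missed the threshold without the block passed it with the block, and 0 lost it.

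The median log2 fold change of the members with LPS in *Ubqln1*-/- cells, -0.17, moved by more than its small replicate SD to -0.14 (no filter), -0.19 (at least 10 counts) and -0.16 (only the groups compared), and to between -0.18 and -0.14 without 1 library. That of LPS against anti-IgM in *Ubqln1*-/- cells lay between 0.014 and 0.043 without 1 library. Of 187 log2 fold changes of named members, 16 changed sign under an alternative, none of which was called and none of which exceeded 0.10 in size. For WT anti-IgM and without 1 library these ran, as log2 fold changes, for *Zfp148* from -0.0681 to 0.0136, *Zfp207* from -6.02e-05 to 0.173, *Zfp36* from -0.0239 to 0.0685, *Zfp52* from -0.0363 to 0.114, *Zfp706* from -0.0103 to 0.138, *Zfp830* from -0.000466 to 0.113. For *Ubqln1*-/- anti-IgM and without 1 library these ran, as log2 fold changes, for *Zfp148* from -0.063 to 0.00108, *Zfp207* from -0.0359 to 0.109, *Zfp36* from -0.0837 to 0.00492, *Zfp706* from -0.0689 to 0.0172, *Zfp830* from -0.0383 to 0.0575. For WT LPS and without 1 library these ran, as log2 fold changes, for *Zfp148* from -0.0243 to 0.0577, *Zfp318* from -0.155 to 0.0138, *Zfp622* from -0.0109 to 0.13, *Zfp706* from -0.0548 to 0.0938. For *Ubqln1*-/- LPS and without 1 library these ran, as log2 fold changes, for *Zfp148* from -0.00484 to 0.0378. Under other alternatives the reversed values were -0.0112 for *Zfp148* (*Ubqln1*-/- LPS, at least 10 counts in every sample), 0.000796 for *Zfp830* (*Ubqln1*-/- anti-IgM, RLE normalization), 0.0305 for *Zfp830* (*Ubqln1*-/- anti-IgM, no filter beyond 1 count), 0.00665 for *Zfp830* (*Ubqln1*-/- anti-IgM, only the groups compared).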

Other observations

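Members were also grouped by their number of C2H2 fingers, as a description without a test. With anti-IgM in WT cells, 18 of 43 members with 0 to 4 fingers fell (41.9%) and 29 of 78 with 5 to 9 (37.2%). So did 47 of 90 with 10 to 14 (52.2%) and 34 of 55 with 15 or more (61.8%), and 32.2% of all genes. With LPS the falls were 20, 27, 41 and 23 of the same groups (46.5, 34.6, 45.6 and 41.8%), against 30.1% of all genes. The LPS shares did not rise with finger number. The rank correlation of finger number with log2 fold change in WT cells was -0.15 for anti-IgM and -0.06 for LPS. KRAB members have more fingers than the other C2H2 members (medians 12 and 7). These counts were not split by class, so finger number and class were not separated.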
